A study of Mus musculus with 4 samples.

Results

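Glutathione transferases were described by cell class and genotype in single-cell RNA sequencing of mouse testis. The 10 genes GSTM1, GSTM2, GSTM5, GSTA4, GSTP1, GSTT1, GSTO1, GSTK1, MGST1 and MGST3 were chosen by family name from the 25824 gene symbols of the count tables, and 9 of them had a count in all 4 libraries. The genes were named with earlier results of the same counts known, so their levels by cell class are given as a description, with no test. Genotypes were tested over all genes at once, and how many of the 10 genes passed is not independent evidence that the family changed.

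Testes came from 2 WT mice (Ctcf wt/wt) and 2 Ctcf-cKO mice (Stra8-iCre-Ctcf f/Δ), all C56BL/6J and 15 weeks old, and each mouse gave 1 library. Replicate numbers are those of the labels, 1 and 2 for WT and 1 and 3 for Ctcf-cKO, and values in a series follow that order. The Ctcf-cKO genotype joins a floxed and a deleted Ctcf allele with a Cre recombinase under the Stra8 promoter, which is active in germ cells. Testicular somatic cells are not the target of the recombinase. The genotype names the deleted allele apart from the recombinase, so somatic cells of the Ctcf-cKO mice may carry it too, unlike those of WT. Its part in the somatic cells was not tested. Dissociated tubules were filtered and washed to remove red blood cells, with no sort. The authors describe pooling the filtrates of 2 tubes for the Ctcf-cKO and no such step for WT, which cannot be told apart from genotype. Cells were put through ddSEQ droplets and a 3′ library kit, so counts measure the 3′ end of a transcript and were not divided by its length.

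Glutathione transferases join reduced glutathione to reactive electrophiles, such as products of lipid peroxidation, which makes them soluble and easier to export. The cytosolic enzymes are grouped by sequence into mu (GSTM), alpha (GSTA), pi (GSTP), theta (GSTT) and omega (GSTO) classes, GSTK1 is the mitochondrial and peroxisomal kappa enzyme, and MGST1 and MGST3 are membrane proteins of a separate family. In testis, Leydig cells make androgens with cytochrome P450 enzymes in the interstitium, while meiotic spermatocytes and the haploid round and elongating spermatids lie within the tubule.

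The libraries held 1593546 to 6701235 counts, and both Ctcf-cKO libraries were shallower than both WT libraries. Barcodes with at least 3 times the plateau of their library's rank curve gave 811 cells, 96, 241, 228 and 246 per mouse, with a median of 15357, 8251, 4668 and 2338 counts per cell. CTCF had 110, 49, 4 and 7 counts in the whole libraries and 38 counts of 3652054 in germ cells of the WT mice, against 4 of 1112550 in the Ctcf-cKO mice. The exons that were deleted are not given in the sources used here, so these 3′ counts are a level and no check of the deletion. The Ctcf-cKO tables stood apart in another way. Of their values above 0, 29.97% and 23.08% equalled 4, against 11.55% and 11.54% in the WT tables, so a count there may not be 1 molecule. The Poisson and ratio intervals below take each count as 1 molecule, so they may be too narrow, above all in the Ctcf-cKO mice. Only 1 barcode was kept as a cell in 2 libraries, and 83 cells had a barcode that also occurs in another table.

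Clustering without the family genes gave 9 clusters. A cluster of 87 cells led by HSD17B3 and INSL3 was Leydig-like and held 7, 0, 35 and 45 cells of the mice. It formed the somatic-like class (10, 16, 74 and 100 cells) together with Sertoli-like, macrophage-like and interstitial fibroblast-like clusters. The germ classes were spermatocyte-like (6, 34, 14 and 11 cells), round spermatid-like (16, 134, 38 and 11 cells) and elongating spermatid-like (42, 11, 59 and 81 cells). A cluster of 154 cells led by TEX46 had too few markers for a name and lay in no class. Sertoli-like cells rested on only 4 markers. The elongating spermatid-like cluster had 9 markers of its own, but the globin gene HBB-BS led it. Free RNA below is the sum over barcodes with fewer than 200 genes, and CPM scale a count to the total of the sum in question.

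The genes that carry the contrast between Leydig-like and germ cells are shown first with their promoters. Gstm1 and Gstm5 lie in 1 gene cluster, with starts 116.4 kb apart, and differed in where they were highest. In the GENCODE annotation of GRCm38, 7 Gstm genes lie within 149.1 kb of chromosome 3. Gstm1 (chr3:108012255-108017973) and Gstm2 (chr3:107981702-107986453) lie on the reverse strand with 8 exons each, and Gstm5 (chr3:107895821-107898686), also with 8 exons, is the only one of the 7 on the forward strand. Mgst1 (chr6:138140316-138156755, forward strand, 4 exons) is a microsomal member whose level across clusters resembled those of GSTM1 and GSTM2. The stretches below are RefSeq promoters on GRCm38.p6, 250 bases before to 50 bases after a start, written along the gene's own strand at chr3:107895604-107895903 for Gstm5, chr3:108017769-108018068 for 1 of the 2 starts of Gstm1, chr3:107986371-107986670 for Gstm2 and chr6:138140277-138140576 for 1 of the 2 starts of Mgst1. Capitals mark matches to 4 motifs searched on both strands.
Gstm5: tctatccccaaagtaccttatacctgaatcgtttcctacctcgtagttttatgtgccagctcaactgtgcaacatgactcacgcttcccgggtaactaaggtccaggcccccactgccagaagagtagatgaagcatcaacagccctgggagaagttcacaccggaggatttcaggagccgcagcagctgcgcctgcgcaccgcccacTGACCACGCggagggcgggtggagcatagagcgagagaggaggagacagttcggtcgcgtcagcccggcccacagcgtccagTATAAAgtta
Gstm1: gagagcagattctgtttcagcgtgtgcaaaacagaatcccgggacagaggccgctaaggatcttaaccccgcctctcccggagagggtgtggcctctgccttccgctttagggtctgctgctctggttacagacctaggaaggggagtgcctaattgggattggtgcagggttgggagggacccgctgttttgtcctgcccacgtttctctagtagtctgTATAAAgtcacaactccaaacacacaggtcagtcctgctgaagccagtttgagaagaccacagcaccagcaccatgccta
Gstm2: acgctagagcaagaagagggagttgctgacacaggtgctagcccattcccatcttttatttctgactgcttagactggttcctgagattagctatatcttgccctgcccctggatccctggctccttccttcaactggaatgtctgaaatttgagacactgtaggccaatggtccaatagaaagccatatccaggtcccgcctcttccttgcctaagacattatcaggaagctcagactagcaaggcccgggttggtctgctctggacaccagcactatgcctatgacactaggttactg
Mgst1: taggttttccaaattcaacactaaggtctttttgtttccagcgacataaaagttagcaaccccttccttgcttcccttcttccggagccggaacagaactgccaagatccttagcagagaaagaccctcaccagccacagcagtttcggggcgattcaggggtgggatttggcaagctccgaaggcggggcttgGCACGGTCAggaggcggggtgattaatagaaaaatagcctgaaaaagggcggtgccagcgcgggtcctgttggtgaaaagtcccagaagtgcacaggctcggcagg
The motifs were the antioxidant response element TGACNNNGC, the cyclic AMP response element TGACGTCA, the NR5A1 type site CAAGGTCA and the TATA box TATAAA, and none of them overlapped another in these stretches. The antioxidant response element matched at bases 209 to 217 of the Gstm5 stretch and, on the reverse strand, at bases 195 to 203 of the Mgst1 stretch. The TATA box matched at bases 221 to 226 of the Gstm1 stretch, before its start, and at bases 291 to 296 of the Gstm5 stretch, after its start. The antioxidant response element was in 12.4% of 32851 promoters of this length, the TATA box in 13.6%, the cyclic AMP response element in 1.79% and the NR5A1 type site in 1.56%. Gstm2 held none of the 4 motifs, nor did the other start of Gstm1 or of Mgst1, which are not printed, and Gsta4 had no entry in the promoter table. These matches describe letters only.

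By the class in which they were highest, the members fell into a somatic group and a germ group. Averaged over the mice, 7 members (GSTM1, GSTM2, GSTA4, GSTT1, GSTO1, GSTK1 and MGST1) were highest in the somatic-like class, and GSTM5, MGST3 and GSTP1 were highest in a germ class. GSTP1 had only 6, 5, 3 and 0 counts in the whole libraries, and the last 300 bases of its transcript equal those of Gstp2, so its counts cannot be assigned with certainty and its place rests on 8 counts.

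**Figure D1:**
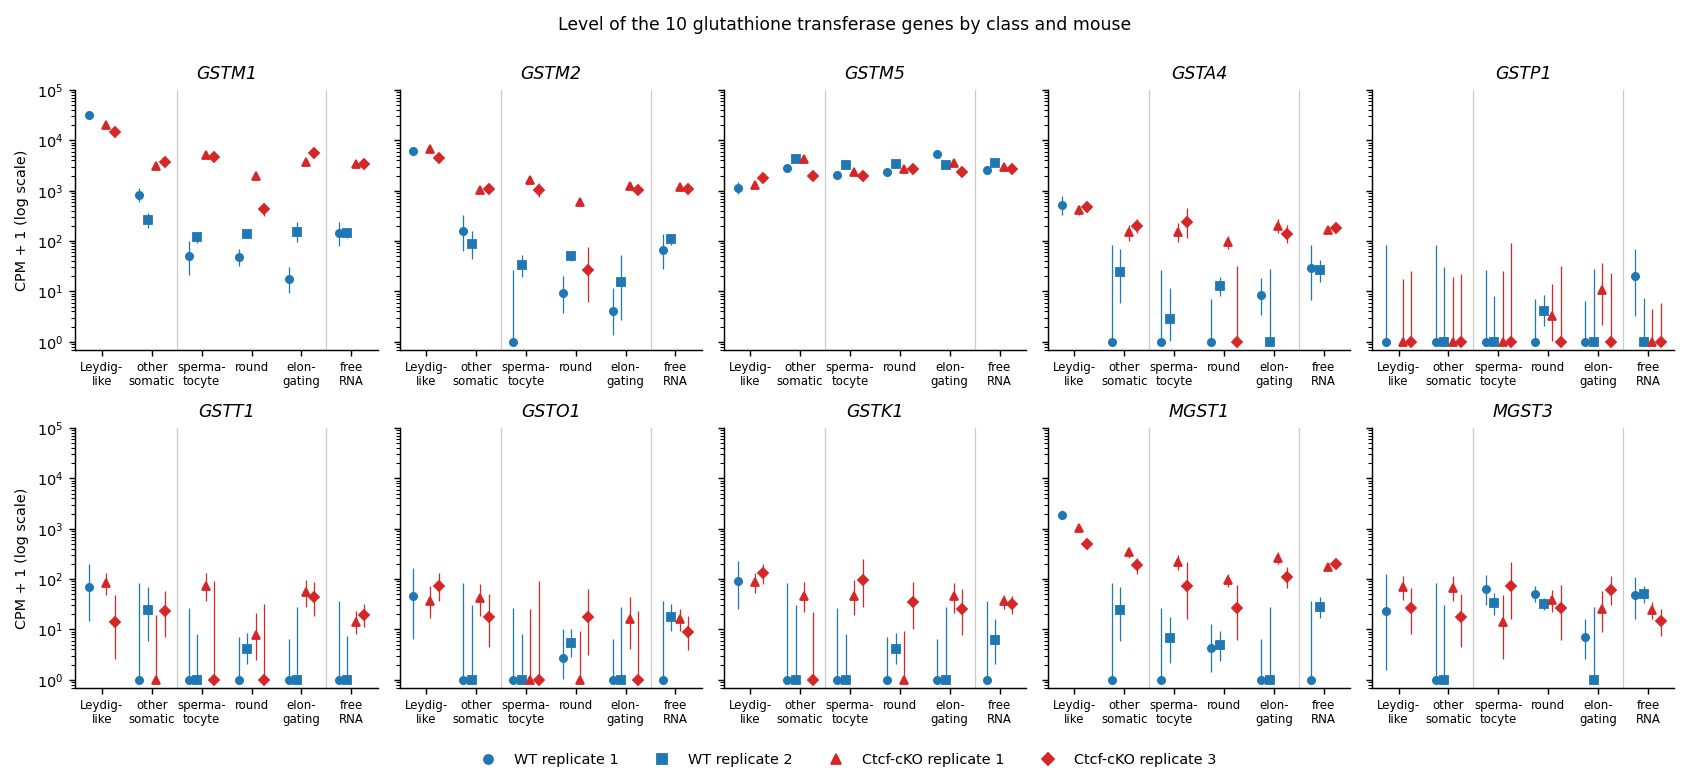
Level of each gene as CPM plus 1 on a log axis, by class, in every mouse (blue WT, red Ctcf-cKO), with exact 95% Poisson bars that cover counting error only. GSTM1, GSTM2, GSTA4 and MGST1 peaked in Leydig-like cells, GSTM5 lay between 1150 and 5476 CPM in every class, and for GSTM1 and MGST1 the red symbols lay above the blue ones in each germ class and in free RNA.

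GSTM1, a mu class enzyme with broad activity on electrophiles, held the largest share of the family's counts in Leydig-like cells. Its level there was 31470 CPM in WT replicate 1, 20320 in Ctcf-cKO replicate 1 and 15050 in Ctcf-cKO replicate 3, and WT replicate 2 had no Leydig-like cell. The other somatic-like cells held 834, 262, 3153 and 3702 CPM, lower than the Leydig-like cells in the 3 mice that had them. Among them the fibroblast-like cluster reached 812, 1187, 5099 and 8365 CPM and the Sertoli-like cluster 1014, 94.1, 1031 and 1236 CPM, on 1, 10, 17 and 16 Sertoli-like cells. Leydig-like cells stood 839-fold above the mean of the 3 germ classes in WT replicate 1, but only 5.59-fold and 4.20-fold above it in Ctcf-cKO replicates 1 and 3. In the germ classes GSTM1 ran from 16.5 to 153 CPM in WT and from 426 to 5542 CPM in Ctcf-cKO mice. No germ class of a WT mouse reached any germ class of a Ctcf-cKO mouse.

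GSTM2, a mu enzyme with 8 exons like its neighbour, followed the same order with fewer counts. Leydig-like cells held 6178, 6667 and 4391 CPM of it in WT replicate 1 and Ctcf-cKO replicates 1 and 3. In spermatocyte-like cells it had 0, 32.1, 1611 and 1045 CPM, and in elongating spermatid-like cells 3.01, 14.6, 1245 and 1013 CPM. The genotypes did not overlap in either germ class. In round spermatid-like cells they did, with 8.36 and 49.4 CPM in WT against 600 and 25.6 CPM in Ctcf-cKO mice.

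GSTA4 is an alpha class enzyme that acts on 4-hydroxynonenal, a product of lipid peroxidation. It held 519, 416 and 477 CPM in the Leydig-like cells of WT replicate 1 and Ctcf-cKO replicates 1 and 3. Its germ class levels were 12.0 CPM or lower in the WT mice and reached 243 CPM in a Ctcf-cKO mouse, although round spermatid-like cells of Ctcf-cKO replicate 3 had none. MGST1, a membrane enzyme of the endoplasmic reticulum and mitochondria that also reduces lipid peroxides, had 1916, 1054 and 503 CPM in the same Leydig-like cells. Its germ class levels lay at 5.66 CPM or lower in the WT mice and at 25.6 CPM or higher in the Ctcf-cKO mice, without overlap. The 25.6 CPM rested on 3 counts in round spermatid-like cells of Ctcf-cKO replicate 3, whose spermatocyte-like cells also had 3. Of all genes tested, both Ctcf-cKO mice lay above both WT mice for 17.2% in spermatocyte-like cells. In round and elongating spermatid-like cells these shares were 17.8% and 37.2%.

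The 3 sparse members of the somatic group had few counts. GSTK1 held 90.2, 85.9 and 131 CPM in Leydig-like cells, GSTO1 45.1, 36.2 and 71.9 CPM, and GSTT1 67.6, 81.4 and 13.1 CPM. Of the counts in classed cells, the somatic-like class held 70.9% for GSTM1, 72.5% for GSTM2, 75.5% for MGST1, 61.2% for GSTA4 and 61.2% for GSTK1. GSTT1 had 44.8% there, on 67 counts in all, and GSTO1 71.1% on 45 counts. Of all counts in classed cells, 16.8% were somatic-like. Without WT replicate 1 the number of members highest in the somatic-like class was 5, with GSTT1 and GSTK1 leaving it, so the place of those 2 genes rests on that mouse.

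GSTM5, a mu class enzyme known from testis, was highest in a germ class only when all somatic-like cells were pooled into 1 class. Its level was 2088, 3302, 2328 and 1992 CPM in spermatocyte-like cells, 2401, 3412, 2760 and 2767 CPM in round spermatid-like cells, and 5476, 3253, 3597 and 2399 CPM in elongating spermatid-like cells. From spermatocyte-like to round spermatid-like cells it was higher in 4 of 4 mice, and from there to elongating spermatid-like cells in 2 of 4, so the later step lay within the spread between mice. Leydig-like cells had less, 1150, 1325 and 1797 CPM, which is 0.346, 0.458 and 0.753 of the germ mean in WT replicate 1 and Ctcf-cKO replicates 1 and 3. Of its 18515 counts in classed cells 13.3% were somatic-like, against 16.8% of all counts there. Averaged over the mice, the somatic-like class had 2724 CPM, above the 2427 CPM of spermatocyte-like cells, so its low place held for the Leydig-like cells and not for all somatic cells. The Sertoli-like cluster held 3650, 5029, 8561 and 2598 CPM of GSTM5, above the elongating spermatid-like cells of each mouse but WT replicate 1. A single cell carried 43.0% of that cluster's count in Ctcf-cKO replicate 1.

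MGST3, a membrane enzyme with peroxidase activity, was low and spread over the classes. It had 63.3, 32.1, 13.2 and 72.9 CPM in spermatocyte-like cells, 50.1, 31.7, 36.8 and 25.6 CPM in round spermatid-like cells and 22.6, 67.9 and 26.1 CPM in the Leydig-like cells of WT replicate 1 and Ctcf-cKO replicates 1 and 3. It had 6.01, 0, 24.6 and 61.0 CPM in elongating spermatid-like cells, on 4, 0, 5 and 10 counts. Both Ctcf-cKO mice lay above both WT mice there, as they did for 37.2% of all genes tested in that class. MGST3 itself was not tested there. The ranges of the classes overlapped.

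**Figure D2:**
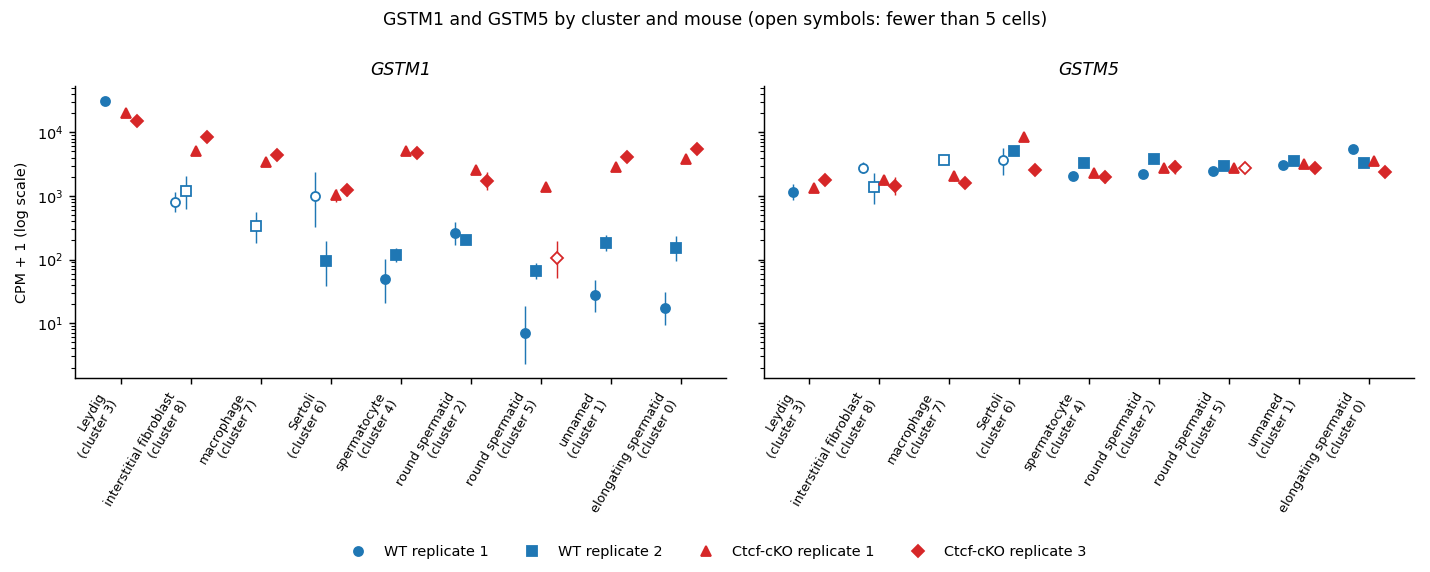
GSTM1 and GSTM5 as CPM plus 1 on a log axis in each of the 9 clusters, by mouse, with exact 95% Poisson bars and open symbols where a mouse had fewer than 5 cells. GSTM1 was highest in the Leydig-like cluster, at 15050 CPM or more, where GSTM5 was at most 1797 CPM.

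Clusters were compared by the pattern of each gene, as the Pearson correlation over 9 clusters of log levels. Each level was averaged over the mice with at least 5 cells in the cluster. GSTM1 correlated with GSTM2 at 0.94 and with MGST1 at 0.93, and with GSTM5 at -0.78. The genes closest to GSTM1 were VCAM1 at 0.987, PKDCC at 0.983 and ACSBG1 at 0.982. PLAAT5 at 0.968, SORD at 0.964 and AQP11 at 0.951 were closest to GSTM5. GSTM2 was closest to CD81 (0.981), MGST1 to CREB3L1 (0.984), and GSTA4 to CLU (0.956) and AMHR2 (0.946), a receptor gene among the Sertoli markers. MGST3 was closest to SIDT2 (0.908). By the rule of 5 cells, the macrophage-like and fibroblast-like clusters held Ctcf-cKO mice alone, and the Leydig-like cluster lacked WT replicate 2. Cell type and genotype are thus mixed in these correlations. The clusters also share libraries and their depth, so these values are descriptions and carry no test.

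The make-up of the family changed with class and genotype. In Leydig-like cells GSTM1 was 75.9%, 67.6% and 67.0% of the counts of the 10 genes, and GSTM5 2.77%, 4.41% and 8.001%. In elongating spermatid-like cells GSTM5 was 99.4% and 95.1% of them in the WT mice, against 39.0% and 25.7% in the Ctcf-cKO mice. In the whole libraries GSTM5 made up 79.8% and 92.4% in WT against 29.7% and 27.6% in Ctcf-cKO libraries, where GSTM1 took 48.8% and 52.3%. The genotypes did not overlap in these elongating spermatid-like or whole-library shares. Round spermatid-like cells of Ctcf-cKO replicate 3 held 325 GSTM5 counts beside 50 of GSTM1 and 3 of GSTM2, so GSTM5 remained the largest part there. In replicate 1 these counts were 1200, 851 and 261. The WT mice had 1437, 28 and 5, and 5389, 219 and 78.

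**Figure D3:**
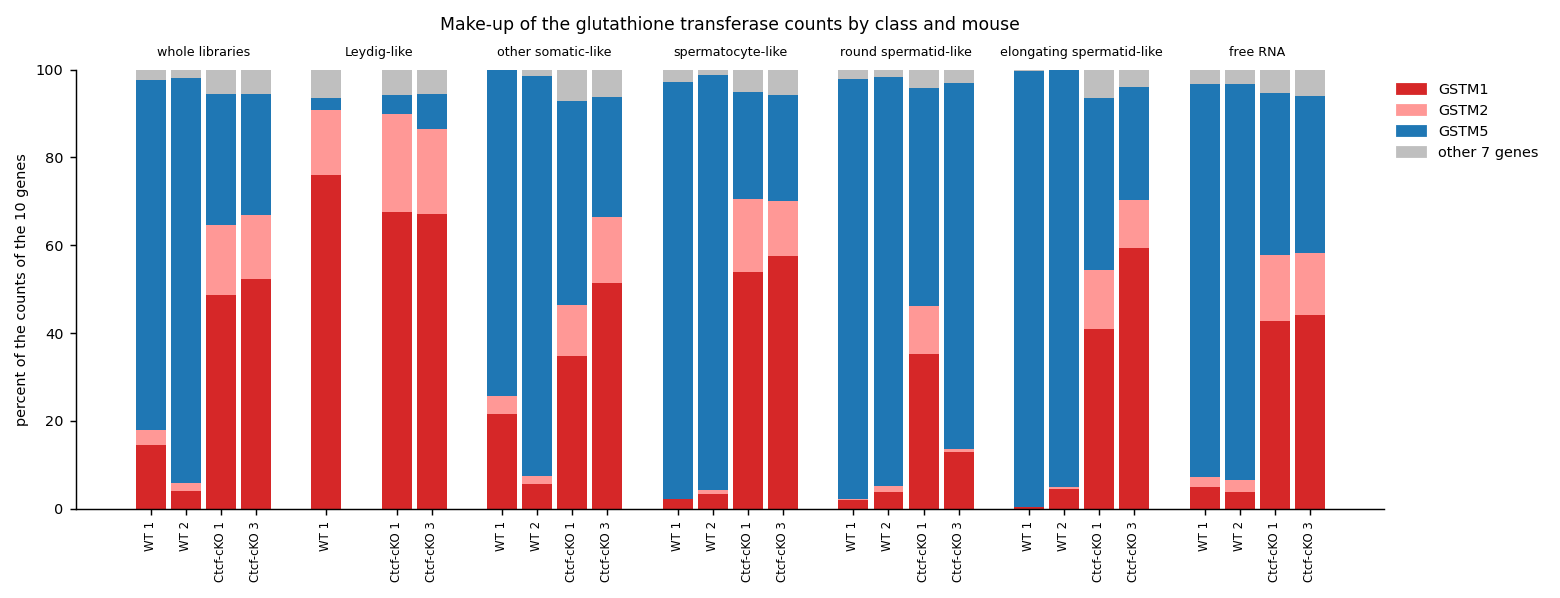
Share of the counts of the 10 genes held by GSTM1, GSTM2, GSTM5 and the other 7 genes, in percent, for each class and mouse (1 bar per mouse, no bar where a mouse had no cell). GSTM5 fills 95.1% and 99.4% of the WT bars of elongating spermatid-like cells and at most 39.0% of the Ctcf-cKO bars.

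The share of cells with a count gave the same picture cell by cell. Each cell was thinned to 900 counts, so that depth did not set the share, and intervals are exact binomial and cover counting error only. Of the elongating spermatid-like cells of the WT mice, 2.38% (0.0603 to 12.6) of 42 and 18.2% (2.28 to 51.8) of 11 had a GSTM1 count, against 96.6% (88.3 to 99.6) of 59 and 91.4% (83.0 to 96.5) of 81 cells of the Ctcf-cKO mice. Unthinned, the shares were 11.9%, 36.4%, 98.3% and 96.3%, at median depths of 14000, 12200, 2850 and 1630 counts. Sertoli markers and globin genes also had counts in the same Ctcf-cKO cells. By the share alone, a count in these cells cannot be told apart from free RNA. GSTM5 had a count in 100% of the elongating spermatid-like cells of both WT mice and in 78.0% and 76.5% of those of the Ctcf-cKO mice. In Leydig-like cells, the class with the lowest GSTM5 level, it was found in 57.1%, 60% and 73.3% of cells.

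**Figure D4:**
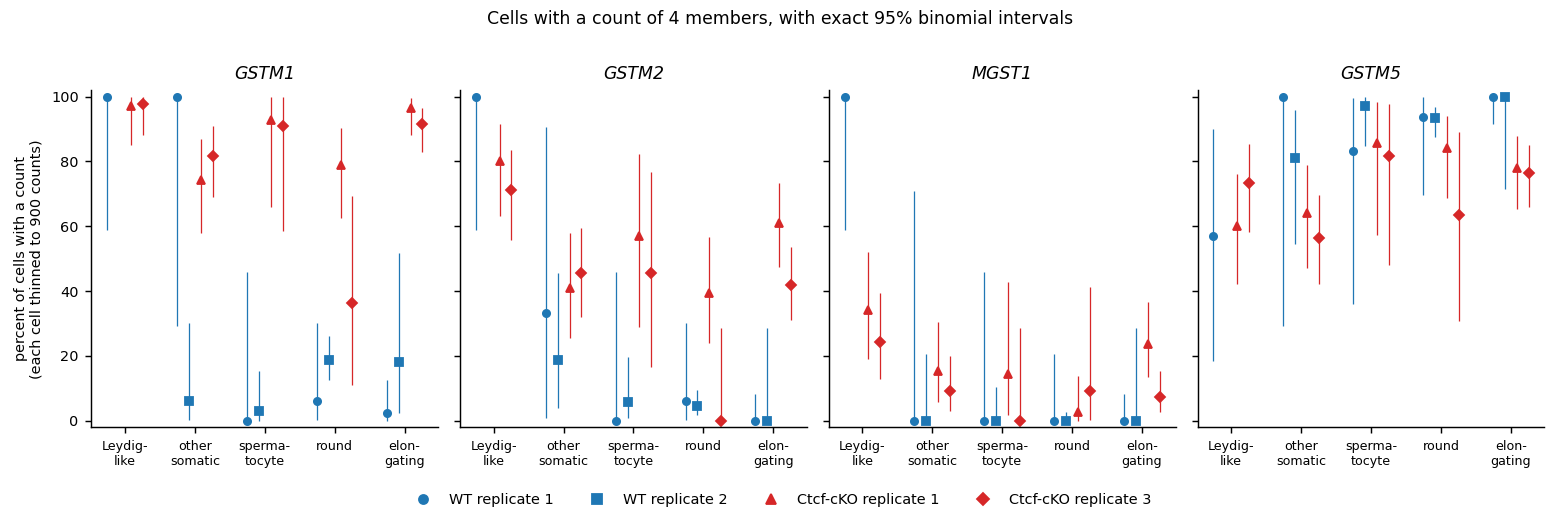
Percent of cells with a count of GSTM1, GSTM2, MGST1 and GSTM5 by class and mouse, each cell thinned to 900 counts, with exact 95% binomial bars. For GSTM1 the Ctcf-cKO mice lie between 36.4% and 96.6% in the germ classes and the WT mice at 18.7% or lower, while GSTM5 is found in 63.6% or more of germ cells in every mouse.

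The first genotype comparison asked how the family differed in the whole libraries, and 7 members were higher in Ctcf-cKO mice. In bulk sums of this kind, more cells of a type and more RNA per cell cannot be told apart. GSTM1 had 501 and 156 CPM in WT libraries against 4756 and 4715 CPM in Ctcf-cKO libraries. Its log2 fold change was 3.93 (SE 0.39, adjusted p 3.08e-05, edgeR quasi-likelihood test with Benjamini-Hochberg adjustment over all genes). GSTM2 rose from 121 and 62.6 to 1556 and 1311 CPM, a log2 fold change of 4.03 (SE 0.28, adjusted p 1.87e-06). No value of either gene overlapped between genotypes.

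GSTA4 had 15.5 and 15.6 CPM against 176 and 201 CPM (log2 fold change 3.66, SE 0.25), and MGST1 24.0 and 11.9 against 261 and 205 CPM (3.75, SE 0.31). GSTK1 had 2.84 and 2.26 CPM against 35.1 and 39.5 (3.91, SE 0.44), and GSTT1 2.84 and 3.91 against 33.6 and 20.1 (3.07, SE 0.50). The adjusted p of these 4 genes in edgeR's quasi-likelihood test was 0.000967 or lower. GSTO1 had 3.73 and 4.12 against 14.3 and 13.8 CPM, a log2 fold change of 1.90 (SE 0.55) with an adjusted p of 0.023 in edgeR, and of 0.0641 in DESeq2. Leaving out Ctcf-cKO replicate 1 or replicate 3 took GSTO1 below the threshold too, with 6 members called.

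GSTM5 had 2776 and 3486 CPM in WT against 2891 and 2488 CPM in Ctcf-cKO mice, which overlapped, and its log2 fold change was -0.16 (SE 0.17, adjusted p 0.533 in edgeR). Without WT replicate 1 it was called lower, at -0.37 with an adjusted p of 0.00272. MGST3 had 30.6 and 29.0 CPM against 28.7 and 25.7 CPM, a log2 fold change of -0.06 (SE 0.33, adjusted p 0.908). The 7 calls among 9 tested members stand beside 2673 genes called higher of 14552 tested, or 18.4% of all genes. DESeq2 called 6 members and 19.8% of all genes. Both Ctcf-cKO mice lay above both WT mice for 7 members and for 32.3% of all genes, and below them for MGST3 and for 35.8% of all genes. Lower calls were made for 10.1% of all genes and for no member.

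Leydig markers moved with these members. All 15 Leydig markers had counts in every whole library, and their sum was 394 and 221 CPM in WT against 3395 and 3138 CPM in Ctcf-cKO libraries. Per 100 counts of the Leydig list, GSTM1 had 127, 70.5, 140 and 150 counts, and GSTM2 had 30.8, 28.3, 45.8 and 41.8. In both ratios the Ctcf-cKO libraries lay above the WT libraries. The Sertoli list, 18 genes of the cells that support germ cells in the tubule, also stood at 215 and 439 against 3435 and 3601 CPM. The part of cell make-up in the difference was not tested.

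**Figure D5:**
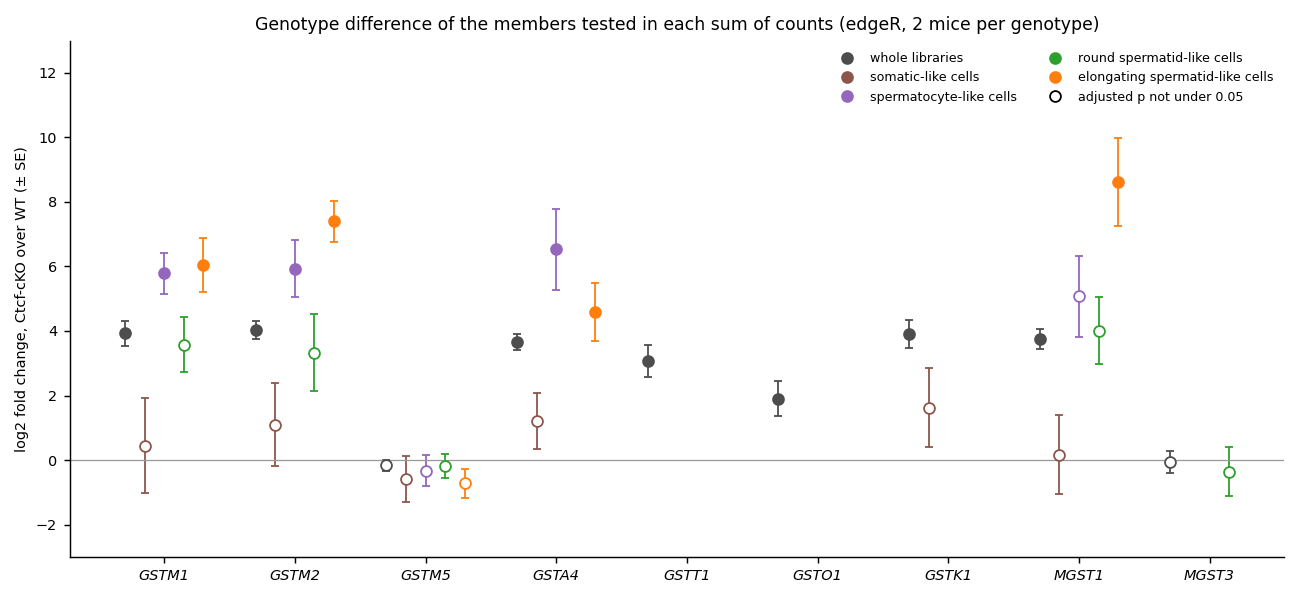
Log2 fold change of Ctcf-cKO over WT with its standard error from edgeR for the members that passed the filter on low counts, in the whole libraries and in each class (filled where the adjusted p was under 0.05). GSTM1, GSTM2, GSTA4 and MGST1 are above 0 in every germ class in which they were tested, GSTM5 stays between -0.72 and -0.16, and the bar of MGST1 in elongating spermatid-like cells is a fitted value against 0 WT counts.

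The next question was whether the difference lay within the cells that express these genes. In somatic-like cells no member was called among the 6 that were tested, and edgeR called 0 of 4342 genes (0.0%). At an unadjusted p under 0.05 there were 0 members and 349 genes (8.04%), and DESeq2 called 0 members and 3 genes (0.0186%). GSTM1 was at 16150, 262, 12240 and 8947 CPM, and its log2 fold change was 0.44 with an SE of 1.47. WT replicate 2 held no Leydig-like cell and 7 of the 15 Leydig markers, with CYP17A1, CYP11A1, INSL3 and LHCGR at 0. The 2 WT mice therefore lay at the top and at the bottom of the range.

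The other somatic comparisons were as wide. GSTM2 had a log2 fold change of 1.10 (SE 1.29), GSTA4 1.20 (SE 0.87), GSTK1 1.62 (SE 1.23), MGST1 0.17 (SE 1.22) and GSTM5 -0.59 (SE 0.70). Both Ctcf-cKO mice lay above both WT mice for 2 of the 6 members and for 28.2% of all genes. Without WT replicate 1, the mouse with Leydig-like cells, all 6 were called, GSTM1 at 5.20, together with 1109 genes (15.7%), and that fit has 1 WT mouse whose spread is taken from the Ctcf-cKO mice. Between the only 3 mice with Leydig-like cells no test was made, since WT had 1.

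In spermatocyte-like cells, 3 of 5 tested members were higher in Ctcf-cKO mice. GSTM1 was at 49.2 and 117 CPM in WT against 5175 and 4786 CPM in Ctcf-cKO mice (log2 fold change 5.79, SE 0.63, adjusted p 0.00661, edgeR quasi-likelihood). GSTM2 followed at 5.93 (SE 0.89, adjusted p 0.0177). GSTA4 had 0 and 1 count in the WT mice against 23 and 10, a ratio of 115 with a counting interval of 19.2 to 4670. That interval takes each count as 1 molecule. GSTM2, GSTA4 and MGST1 passed the filter on low counts only through the Ctcf-cKO mice, where they are high. The call of GSTA4 had an adjusted p of 0.0482 in edgeR. That call held in 4 of 9 alternatives, with adjusted p from 0.00996 to 0.192 in edgeR or DESeq2. MGST1 had 0 and 3 counts against 33 and 3, a ratio of 41.7 (13.2 to 212), with an adjusted p of 0.121.

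GSTM5, which spermatocyte-like cells of both genotypes held, did not pass the test there (log2 fold change -0.34, SE 0.48, adjusted p 0.97 in edgeR). GSTT1 and GSTK1 had no WT count and 11 counts each in the Ctcf-cKO sum, 12.7-fold above a floor of 3 counts over the WT mice. The error of those 11 counts is not in that fold, and the GSTT1 counts were all in replicate 1. Over all genes 37 of 3711 were called higher, or 0.997%, and 7.95% had an unadjusted p under 0.05, as had 4 members. DESeq2 called the same 3 members and 1.07% of all genes. Both Ctcf-cKO mice lay above both WT mice for 4 of the 5 members and 17.2% of all genes.

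The Leydig list moved with these values too, at 225, 274, 5306 and 3814 CPM in spermatocyte-like cells, with 2, 9, 15 and 13 of its 15 genes found. That list holds steroid enzymes and other genes, and where their counts in these cells came from was not tested. GSTM1 in these cells was 0.344, 0.803, 1.51 and 1.44 of its level in the free RNA of the same mouse. With the expected free RNA subtracted, 0 members and 0 genes were called, while the log2 fold change of GSTM1 was 5.82 (adjusted p 0.105 in edgeR) and that of GSTM2 6.10 (adjusted p 0.133). The subtraction took the Ctcf-cKO sums only from 152090 and 41161 to 147296 and 38892 counts. Clustering without correction across libraries put 5 of the 14 spermatocyte-like cells of Ctcf-cKO replicate 1 and 7 of the 11 of replicate 3 into clusters named Leydig-like. Of these, 4 and 7 lay in a cluster led by LTBP4 and DCN. Its name rested on 5 Leydig markers beside 4 interstitial fibroblast markers, so it is not clearly a Leydig cluster. The cells that were spermatocyte-like under both clusterings still held GSTM1, at 4507 CPM in 9 cells and 1660 CPM in 4 cells of the Ctcf-cKO mice, against 0 CPM in 4 cells and 115 CPM in 32 cells of the WT mice. That split was chosen after seeing the data and was not tested.

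Round spermatid-like cells gave no call in edgeR, with 0 of 5 members and 0 of 6356 genes (0.0%). GSTM1 was at 46.8 and 139 CPM in WT against 1957 and 426 CPM in Ctcf-cKO mice, which did not overlap. Its log2 fold change was 3.58. At an unadjusted p under 0.05 stood 3 members (GSTM1, GSTM2 and MGST1) and 3.51% of all genes, and DESeq2 called GSTM1 (adjusted p 0.00214) among 0.0707% of all genes. Both Ctcf-cKO mice lay above both WT mice for 2 members, GSTM1 and MGST1, and for 17.8% of all genes.

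The calls changed with single mice. Without Ctcf-cKO replicate 3, which had 11 round spermatid-like cells, 4 members were called, with 1.34% of all genes, without WT replicate 2 there were 2, without WT replicate 1 there was 1, and without Ctcf-cKO replicate 1 GSTM2 turned to -0.67. The level of GSTM1 also differed within the class. In the larger cluster of 135 cells it was 259, 204, 2587 and 1746 CPM, and in the cluster of 64 cells, the deeper one, 5.98, 64.9, 1402 and 106 CPM. GSTM1 was below the free RNA of the same mouse in each round spermatid-like sum (0.327, 0.952, 0.573 and 0.128). The Leydig list was at 179, 176, 1300 and 511 CPM, with 5, 10, 15 and 8 of 15 genes found. Clustering without correction gave another name or none to 1 of 16, 98 of 134, 30 of 38 and 8 of 11 cells of this class. In Ctcf-cKO mice 25 and 4 of them lay in a cluster named interstitial fibroblast-like. That cluster had 5 interstitial fibroblast and 5 round spermatid markers, so its name was a tie and these cells may not have left their class. The cells that stayed round spermatid-like held 5.07, 60.5, 647 and 106 CPM of GSTM1, in 15, 36, 8 and 3 cells. That split, too, was chosen after seeing the data and was not tested.

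In elongating spermatid-like cells 4 of 5 tested members were higher in Ctcf-cKO mice. GSTM1 was at 16.5 and 153 CPM in WT against 3769 and 5542 CPM in Ctcf-cKO mice (log2 fold change 6.04, SE 0.84, adjusted p 0.00245, edgeR quasi-likelihood). GSTM2 had a log2 fold change of 7.40 (SE 0.63, adjusted p 0.00035) on 2 and 2 counts against 253 and 166. GSTA4 had 7.52 and 0 CPM against 197 and 140 CPM (4.58, SE 0.90, adjusted p 0.00633). The genotypes did not overlap for any of these.

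MGST1 had no WT count in elongating spermatid-like cells against 53 and 18 in Ctcf-cKO mice, 51.7-fold above a floor of 3 counts (adjusted p 0.00273 in edgeR). MGST1, GSTM2 and GSTA4 passed the filter on low counts only through the Ctcf-cKO mice, where they are high. Their calls add no separate support to the count of members. GSTT1 and GSTK1, which did not pass the filter on low counts, stood 13.1-fold and 9.47-fold above the same floor, on 18 and 13 Ctcf-cKO counts. GSTM5 was at 5476 and 3253 CPM against 3597 and 2399 CPM, a log2 fold change of -0.72 (adjusted p 0.326), and was called lower, at -1.41, without WT replicate 2. Over all genes 14.9% were called higher, and both Ctcf-cKO mice lay above both WT mice for 4 members and for 37.2% of all genes. DESeq2 called 4 members and 5.74% of all genes. Without Ctcf-cKO replicate 1, or without replicate 3, 0 members and 0 genes were called.

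Other cell types' genes stood high in the same cells. The Leydig list was at 31.6, 87.5, 2534 and 2264 CPM, with 4, 2, 15 and 13 of its 15 genes found. The Sertoli list was at 101, 212, 3331 and 4358 CPM, and the red blood cell list, 4 globin and heme genes, at 3.01, 0, 15870 and 1697 CPM. The elongating spermatid list itself was lower in the Ctcf-cKO mice, at 264300, 272800, 167300 and 165100 CPM. GSTM1 was 0.116, 1.05, 1.10 and 1.66 of its level in the free RNA of the same mouse. With the expected free RNA subtracted 4 members were called. The subtraction took the Ctcf-cKO sums only from 203251 and 163851 to 179921 and 141472 counts, too little to decide where the GSTM1 counts came from.

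The class itself depended on the correction across libraries. Without it, a globin-led cluster without a name took 43 of the 59 cells of Ctcf-cKO replicate 1 and 66 of the 81 of replicate 3. That cluster held 1 WT cell. Another 13 and 7 Ctcf-cKO cells lay in the cluster led by LTBP4 and DCN. Its Leydig-like name rested on 5 markers beside 4 of interstitial fibroblasts. Only 1 of these Ctcf-cKO cells stayed elongating spermatid-like, and 0 members were called. Whether the GSTM1 counts of these cells are their own was not tested.

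The ratio between members was also compared within each mouse. Per 100 GSTM1 counts, GSTM2 had 32.8 and 29.2 counts in the Leydig-like cells of Ctcf-cKO replicates 1 and 3, and 35.3 and 32.0 in their free RNA. In spermatocyte-like cells it had 31.1 and 21.8, and in elongating spermatid-like cells 33.0 and 18.3. In Ctcf-cKO replicate 1 the ratio lay between 30.7 and 35.3 over Leydig-like cells, free RNA and the 3 germ classes, and in replicate 3 it was lower in the germ classes than in Leydig-like cells. In WT replicate 1 the ratio was 19.6 in Leydig-like cells and 46.7 in free RNA, the latter on 15 GSTM1 counts. The Sertoli-like cluster had 90 and 56.8 GSTM2 counts per 100 GSTM1 counts in the Ctcf-cKO mice, more than any other cluster of the same mouse.

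The remaining family genes were taken from a list of 21, of which 17 were in the tables. In the whole libraries 7 of 15 tested were higher in Ctcf-cKO mice and none was lower, beside 18.4% higher and 10.1% lower of all genes (median log2 fold change 0.36, against -0.04 over all genes). GSTA2 had 11.3 and 8.85 CPM against 138 and 127 CPM (log2 fold change 3.77) and GSTA3 24.5 and 10.5 against 154 and 121 CPM (3.04). Both are alpha enzymes, and in Leydig-like cells they held 1150, 588 and 268 CPM and 902, 647 and 379 CPM. The mu genes GSTM6 and GSTM7, which lie between Gstm5 and Gstm2, rose by 3.55 and 3.19. The other 3 called were LTC4S, PTGES and ALOX5AP, which serve leukotriene and prostaglandin synthesis.

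Among the family genes outside the 10, GSTO2 and GSTT4 resembled GSTM5. GSTO2, an omega enzyme with dehydroascorbate reductase activity, had 349 and 379 CPM in WT against 341 and 340 CPM in Ctcf-cKO libraries, and GSTT4, a theta gene, 590 and 682 against 528 and 499 CPM. Neither was called. In Leydig-like cells they had 22.6, 194.5 and 229 CPM, and 45.1, 226 and 503 CPM, below elongating spermatid-like cells of the same mice (401, 497 and 543 CPM, and 846, 610 and 598 CPM). In elongating spermatid-like cells 4 of 7 tested family genes were higher in Ctcf-cKO mice, beside 14.9% of all genes. GSTM6 rose by 2.77 and GSTM7 by 4.6, while GSTA2 and GSTA3 had no WT count and stood 43.0-fold and 29.9-fold above the floor of 3 counts. GSTM6, GSTM7, GSTA2 and GSTA3 passed the filter on low counts only through the Ctcf-cKO mice. The median log2 fold change was 2.77, also with those 2 genes at their folds above the floor, against 0.02 over all genes. In somatic-like (10 tested), spermatocyte-like (5) and round spermatid-like cells (7) none was called by edgeR or DESeq2, and 2 in each had an unadjusted p under 0.05.

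Genes that make, reduce or use glutathione were counted on a list of 34, with 32 in the tables. In the whole libraries 11 of 30 tested were higher and 2 lower in Ctcf-cKO mice, beside 18.4% and 10.1% of all genes (median log2 fold change 1.13). The peroxidase genes GPX1 and GPX3 rose by 3.18 and 3.25, glutaredoxin GLRX by 4.10, and IDH1, an NADPH source that is also on the Leydig list, by 3.43. TXNRD3, a thioredoxin and glutathione reductase of the testis, fell by 0.65, and HAGH, a glyoxalase, fell by 0.56. In elongating spermatid-like cells 3 of 8 were higher, beside 14.9% of all genes, with GPX1 up by 4.73 (median over the 8 genes 1.21). GPX3 and IDH1 had no WT count and stood 17.5-fold and 48.1-fold above the floor of 3 counts. GPX1, GPX3 and IDH1 passed the filter on low counts only through the Ctcf-cKO mice. In somatic-like (15 tested), spermatocyte-like (7) and round spermatid-like cells (13) edgeR and DESeq2 called none, and 3, 2 and 1 had an unadjusted p under 0.05.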

How the data were processed

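The authors aligned ddSEQ 3′ reads to GRCm38 and deposited, per mouse, a table of counts in whole numbers for each symbol and barcode, not normalized. The counting tool and how reads of 1 molecule were merged are not given in the sources used here. From these counts, barcodes with 200 to 7000 genes, at most 10% mitochondrial counts and at least 3 times the plateau of their library's rank curve (ranks 300 to 1000) were kept. Cells were normalized and clustered in Seurat 5.3.0 (2000 variable genes without the family, 15 principal components, Harmony written anew, resolution 0.9) and named from marker lists by at least 3 markers. Scrublet in scanpy 1.11.5 marked 54 cells (6.66%), which were kept and left out in an alternative. Counts were summed per mouse and class, where each mouse had at least 5 cells, and compared between genotypes with the quasi-likelihood test of edgeR 4.0.16 (R 4.3.3), after filterByExpr and TMM scaling, at a Benjamini-Hochberg adjusted p under 0.05. Genes with no or few WT counts in a class passed the filter only through the Ctcf-cKO mice where they are high. The number of members called among those tested is therefore no added support. Simulated counts with known changes were used to check the tests.

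With 2 mice in each genotype and class sums of 41161 to 1579239 counts, p-values measure the spread between these mice only, and an exact permutation test of 2 against 2 mice cannot go below 0.333. No label names a batch. The members and lists were chosen with earlier results of these data known. Named genes were the 10 members, the 3 genes most like each in pattern where it had 100 counts or more, and called genes of the 2 lists. Likeness used log2 of CPM plus 10. A floor of 3 counts was used for genes with no count, and folds above it leave out the error of the Ctcf-cKO counts. Intervals are at 95%. Positions came from the GENCODE annotation of GRCm38, and transcript ends were compared with blastn 2.17.0. In the last 300 bases Gstk1 was 86.6% identical to Gm6684 and Gstm1 77.4% to Gstm3 over the matched stretch.

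Alternatives were DESeq2 1.42.0, no TMM, low genes not filtered out, a limit of 6 times the plateau, resolution 0.5, no correction across libraries, expected free RNA subtracted, doublets left out, barcodes under 200 genes left out of the whole libraries, and each mouse left out. Values divided by 4 and rounded up were added after seeing the data. Protein sequences were not used here.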

Additional observations from a re-analysis of the deposited data

Results flagged for a closer look

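The cluster of 154 cells without a name lay in no class, so its counts entered the whole-library comparison but none by class, and 4 members stood above the WT mice there. GSTM1 was at 2879 CPM in the lower of the Ctcf-cKO mice and 4067 CPM in the other, against at most 182.5 CPM in a WT mouse. GSTM2 was at 711.8 and 798.1 CPM in the Ctcf-cKO mice against at most 50.5 CPM. GSTA4 was at 190.0 and 198.3 CPM against at most 19.4 CPM, and MGST1 at 99.2 and 164.7 CPM against at most 7.77 CPM. These differences were not tested.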

How the results depend on the processing

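Members called stayed within 1.5 times of the reported number, apart from the following. In spermatocyte-like cells 0 were called with expected free RNA subtracted, with GSTM1 at 5.82 and GSTM2 at 6.10, and the call of GSTA4 held in 4 of 9 alternatives. In round spermatid-like cells 1 was called by DESeq2 and 2 with no filter on low genes. In elongating spermatid-like cells 0 were called without correction across libraries and 2 with values divided by 4, an alternative chosen after seeing the data. Leaving out each mouse in turn gave 6 to 7 members called in the whole libraries, 0 to 6 in somatic-like, 2 to 3 in spermatocyte-like, 0 to 4 in round spermatid-like and 0 to 5 in elongating spermatid-like cells, and 5 to 7 members highest in somatic-like cells. Of the log2 fold changes under alternatives, 14 turned sign, none of them of a called value. With values divided by 4, GSTM5 was at 0.22 and MGST3 at 0.12 in the whole libraries, and MGST3 was at 0.27 without barcodes under 200 genes. Without WT replicate 2, GSTM5 was at 0.02 in the whole libraries, 0.31 in somatic-like, 0.14 in spermatocyte-like and 0.20 in round spermatid-like cells, and in somatic-like cells GSTM1 was at -0.48 and MGST1 at -0.73. Without correction across libraries, somatic-like cells had GSTM1 at -0.40, GSTM5 at 0.45 and MGST1 at -0.94. Without Ctcf-cKO replicate 1, MGST1 was at -0.45 in somatic-like and GSTM2 at -0.67 in round spermatid-like cells. Leaving out a mouse moved these log2 fold changes between -0.37 and 0.02 for GSTM5 in the whole libraries, from -0.48 to 5.20 for GSTM1, -1.05 to 0.31 for GSTM5 and -0.73 to 4.31 for MGST1 in somatic-like cells, from -0.86 to 0.14 for GSTM5 in spermatocyte-like cells, and from -0.67 to 5.33 for GSTM2 and -0.62 to 0.20 for GSTM5 in round spermatid-like cells. Genes called changed by over 1.5 times from 37 in spermatocyte-like cells to 18 without doublets, 65 with DESeq2 and 69 with no filter, from 402 in elongating spermatid-like cells to 146 with values divided by 4, from 0 in round spermatid-like cells to 6 with DESeq2, 1 with library totals and 33 with no filter, and from 0 in somatic-like cells to 3 with DESeq2 and 5 with no filter. Leaving out a mouse gave 1710 to 4444 genes in the whole libraries (4150 reported), 1 to 1109, 26 to 64, 6 to 110 and 0 to 856 in the 4 classes in the same order as above. The cause was not tested. A limit of 6 times the plateau was not run for somatic-like and spermatocyte-like cells, nor no correction for spermatocyte-like and round spermatid-like cells, since a mouse had fewer than 5 cells. No paired analysis was possible because the genotypes share only 1 replicate number.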
